A study of Cavia porcellus with 10 samples.

Results

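The genes of the WNT pathway described here are the ligands, the enzyme that prepares them for secretion, their receptors and co-receptors, the secreted agonists and antagonists, and 4 genes of the beta-catenin arm. They were taken by gene name alone: the genes that the table names as members of the WNT, FZD, SFRP, DKK and RSPO families together with FRZB, WIF1, LRP6, ROR1, ROR2, LEF1, TCF7, AXIN2, PORCN, LGR4, NOTUM and CTNNB1. This gave 50 of the 25028 genes in the table of the guinea pig (Cavia porcellus) cervix. LRP5 and LGR5, which the rule also names, were not analysed here.

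RNA-seq had been made from the vaginal portion of the cervix of Hartley guinea pigs in 3 reproductive stages, with 1 library per animal and no treatment in any group. The stages were non-pregnant females in estrus, killed on the day after their vaginal membrane had opened (NP, n = 3), mid-pregnancy with an estimated gestation of 43.6 ± 0.5 days (MT, n = 3, SD), and late pregnancy before labor with an estimated gestation of 65.2 ± 1.2 days (LT, n = 4, SD). The age of the animals is not given in the sources used here, and gestation was estimated after death from fetal size. The comparisons ask which genes change from estrus to mid-pregnancy and from mid- to late pregnancy.

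WNT proteins are lipid-modified secreted ligands that bind Frizzled (FZD) receptors on nearby cells. In the canonical branch, a WNT bound to a Frizzled and an LRP co-receptor stabilizes beta-catenin, which then activates target genes together with TCF/LEF factors. Other branches run through ROR co-receptors, planar cell polarity proteins or calcium. R-spondins, bound by LGR receptors, keep Frizzled receptors on the cell surface, while SFRP proteins, WIF1 and several DKK proteins are secreted inhibitors. In the female reproductive tract the pathway is known for its part in the formation of the Müllerian duct derivatives and in exchange between stroma and epithelium.

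Expression is given as TPM, a unit that corrects for library size and transcript length, so that levels can be compared between genes. Changes are differences in log2(TPM + 1) with their standard error (SE), a scale on which the change of a gene with few TPM comes out too small. They were tested with limma over the 12645 genes that reached a mean of 3 TPM, the operational threshold of expression, in at least 1 stage. A change is called when the adjusted P is below 0.05. P sets the difference between stages against the spread between these animals, which limma estimated over all 3 stages and moderated across genes. Between 18730665 and 27881572 reads per animal fell on genes, and a gene near 3 TPM was backed by 55 to 104.5 reads (median of such genes in each library). TPM sums to the same total in each animal, and the median change of all tested genes was -0.14 from NP to MT, -0.16 from MT to LT and -0.28 from NP to LT. In bulk tissue, fewer cells of a type and less RNA per cell cannot be told apart, and the labels give no sequencing batch.

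The tissue held the epithelia, stroma, smooth muscle and vessels of a cervix at levels that differed between animals. Of the marker genes with a row, smooth muscle (11 of 11) summed to 31907, 11136 and 8691 TPM in the NP animals, to 13230 to 19772 TPM in MT and to 19899 to 40778 TPM in LT. Squamous epithelium (13 of 17 markers with a row) summed to 6562, 1856 and 1277 TPM in NP, to 248 to 1834 TPM in MT and to 1904 to 4273 TPM in LT. NP replicate 1 was thus the highest of its stage in both lists. KRT14 alone had 919 to 2825 TPM in NP and 1430 to 2803 TPM in LT. Of the 12 tested squamous genes, 4 were called lower from NP to LT (SBSN, IVL, SPRR3 and TGM1) and none higher, where 41.9% of all genes fell. The sum for columnar and mucous epithelium (12 of 15) was 1063 to 1259 TPM in the NP animals, 3175 to 5526 TPM in the MT animals and 7766 to 9468 TPM in the LT animals, with TFF1 listed at 0 in every animal. AGR2 formed most of this sum in each LT animal, at 5547 to 7559 TPM after 1250 to 2904 TPM at mid-pregnancy. The higher LT sum thus followed AGR2. Of the 9 tested columnar genes, AGR2 alone was called higher from MT to LT and none lower, with a median change of 0.24. Endothelium (8 of 10) lay at 188 to 250 TPM in the NP animals, 140 to 195 TPM in the MT animals and 71.6 to 115 TPM in the LT animals, and 8 of its 8 tested genes fell from MT to LT, where 22.7% of all genes fell. With edgeR 6 of the 8 were called, as EMCN (adjusted P = 0.108) and CDH5 (adjusted P = 0.0597) were not. Stromal fibroblast genes (8 of 12) ranged from 5518 to 10990 TPM over all animals, with the highest value in NP replicate 1. Leukocyte genes (10 of 13) summed to 220, 519 and 398 TPM in NP, with NP replicate 1 the lowest of all animals, to 243 to 282 TPM in MT and to 264 to 401 TPM in LT.

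**Figure D1:**
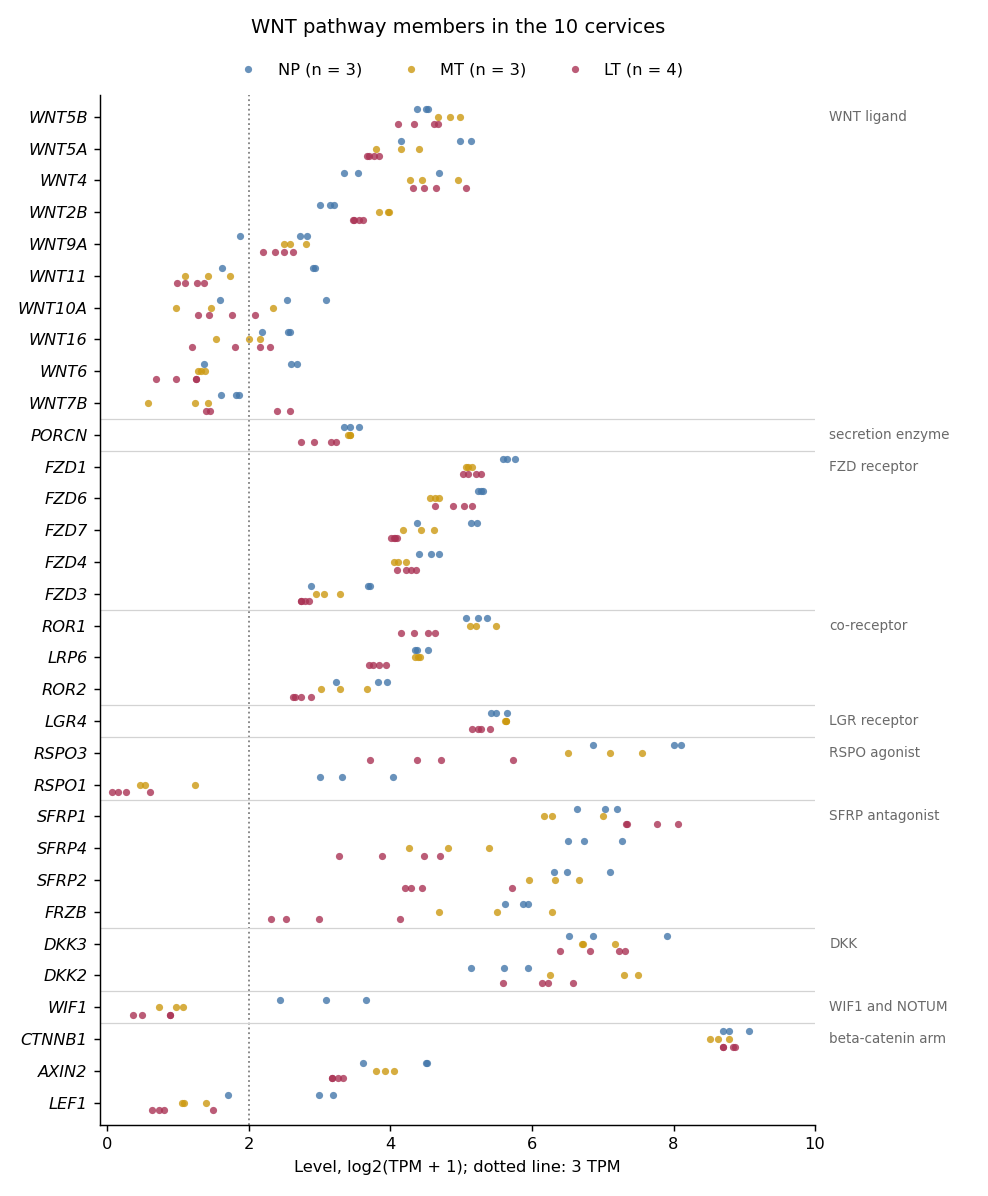
Levels of the 32 tested WNT pathway genes as log2(TPM + 1) on the horizontal axis, 1 point per animal (NP n = 3, MT n = 3, LT n = 4), with the genes grouped by role on the vertical axis and a dotted line at 3 TPM. CTNNB1 lies highest at 364 to 533 TPM, and RSPO1 and WIF1 are the genes whose NP animals all lie above the dotted line while all MT and LT animals lie below it.

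Of the 50 genes, 32 passed 3 TPM in at least 1 stage and could be tested, and 15 stayed below 3 TPM in every animal. RSPO4, WNT1 and WNT8A had 0 reads in all 10 libraries, where a count of 0 still allows for up to 3 reads in a library by counting error alone. The most abundant gene was CTNNB1 at a mean of 399 to 462 TPM per stage, followed by antagonists and R-spondin 3. A stage mean of 30 TPM was reached by 13 genes, and none of them was a WNT ligand.

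From NP to MT, 2 of the 32 tested genes rose and 7 fell (28.1%), against 18.5% of all tested genes. From MT to LT, 1 rose and 10 fell (34.4%), against 29.4% of all genes. From NP to LT, 2 rose and 21 fell (71.9%), against 53.1%, and the median change of the 32 genes was -0.63 beside -0.28 for all genes. Over the 3 comparisons 24 of the 32 (75%) were called at least once, where the share over all genes was 60.7%. Of all tested genes, 6.27% rose and 12.2% fell from NP to MT, 6.73% and 22.7% from MT to LT, and 11.2% and 41.9% from NP to LT. For 12 of the 32 genes all NP animals lay apart from all MT animals (all genes 34.9%, with 11.4% higher and 23.5% lower), for 14 genes this held between MT and LT (46.3%, with 10.8% higher and 35.5% lower) and for 23 between NP and LT (52.4%, with 11.8% higher and 40.6% lower). An exact permutation F test over the 3 stages gave an adjusted P below 0.05 for 20 of the 32, against 47.1% of all genes. The comparisons share animals, so their counts are not independent. Only WNT2B was called both from NP to MT and from MT to LT, in opposite directions.

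The 7 genes that fell from NP to MT were the secreted factors RSPO1, WIF1 and SFRP4, the receptors FZD1, FZD6 and FZD4, and LEF1, while DKK2 and WNT2B rose. The 10 that fell from MT to LT were RSPO3, FRZB and SFRP2, the co-receptors ROR1, ROR2 and LRP6, and AXIN2, PORCN, WNT2B and LGR4. SFRP1 was the single gene of the 32 that rose from MT to LT. With edgeR on the read counts, 2 rose and 7 fell from NP to MT (all genes 10.1% and 7.98%), 3 rose and 6 fell from MT to LT (13.4% and 15.6%), and 2 rose and 17 fell from NP to LT (23.6% and 25.8%). From MT to LT the falls of LGR4, PORCN, ROR2 and WNT2B were no longer called and FZD6 and WNT7B were called as higher. Without NP replicate 1, which had the lowest value of its stage for 16 of the 32 genes, 18 genes were called from NP to MT, where the calls over all genes went from 2342 to 4174. Without MT replicate 3 the number from MT to LT was 7, where the calls over all genes went from 3723 to 2679.

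**Figure D2:**
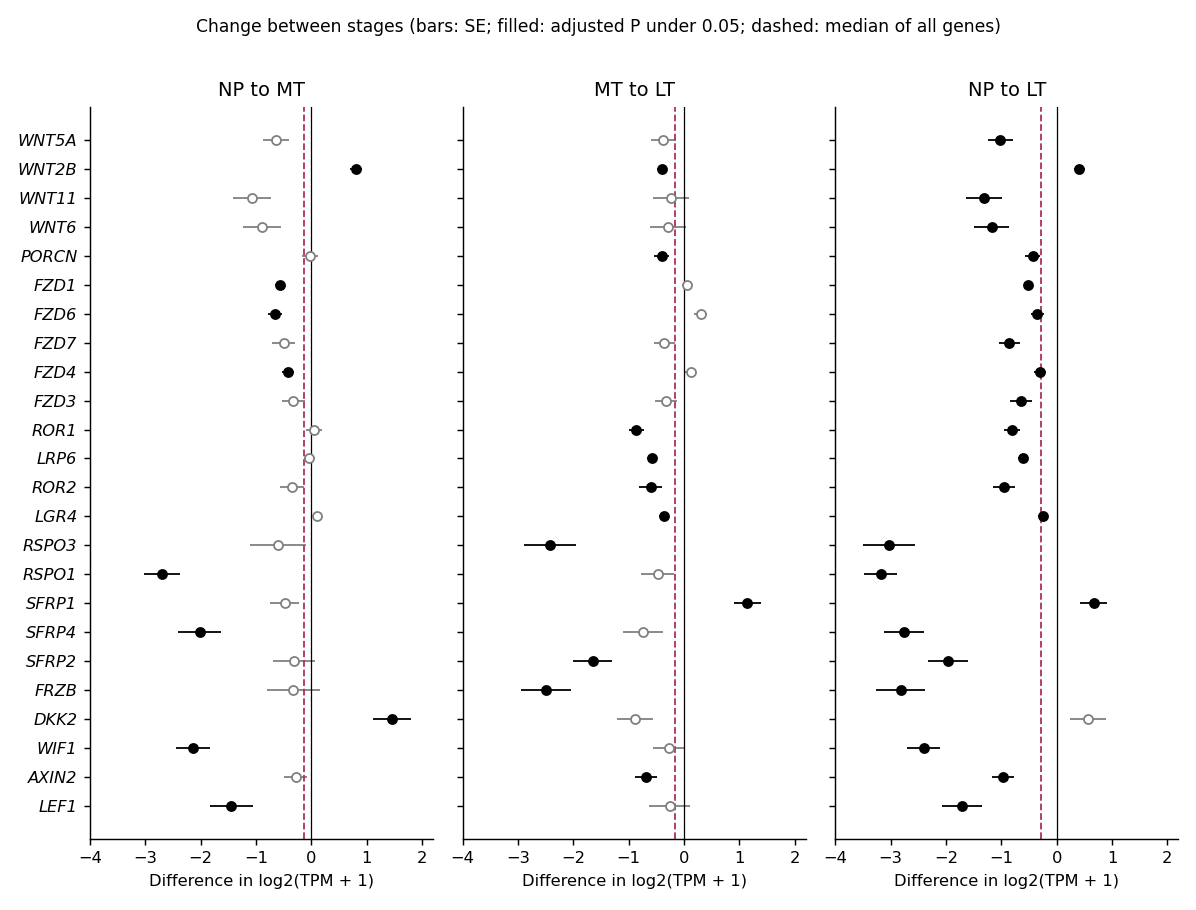
Differences in log2(TPM + 1) between stages for the 24 genes called in at least 1 comparison, from limma. Points are the estimates, bars are ± 1 SE, filled points have an adjusted P below 0.05, and the dashed line is the median of all tested genes. RSPO1, WIF1 and SFRP4 lie far to the left from NP to MT, FRZB, RSPO3 and SFRP2 from MT to LT, and SFRP1 alone lies to the right with a filled point from MT to LT.

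Both tested R-spondins fell from NP to LT, as did 41.9% of all tested genes. RSPO3, a secreted agonist that strengthens WNT signals through LGR receptors, had 115, 257 and 275 TPM in the NP animals, 89.7, 188 and 137 TPM in MT and 52.4, 25.2, 19.7 and 12.1 TPM in LT. All LT animals lay below all MT animals, while NP and MT overlapped. It differed by -2.42 from MT to LT (SE 0.47, adjusted P = 0.00627) and -3.03 from NP to LT (SE 0.47, adjusted P = 0.000699), and from NP to MT it was not called (adjusted P = 0.419). RSPO3 made up 95.2% of the summed TPM of the 4 R-spondins in NP, 99.5% in MT and 99.1% in LT, so the sum followed it, with a mean of 226 ± 90.8 TPM in NP against 139 ± 49.6 in MT and 27.6 ± 17.7 in LT (SD).

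RSPO1, a second R-spondin, went down one interval earlier. Its levels were 7.04, 8.94 and 15.5 TPM in NP, 0.384, 1.37 and 0.447 TPM in MT and 0.525, 0.196, 0.0488 and 0.105 TPM in LT. All NP animals were above the operational threshold and all pregnant animals below it, and the stage mean passed below 3 TPM. Of all tested genes, 4.95% passed downward and 2.08% upward in this way from NP to MT, 4.71% and 1.97% from MT to LT, and 7.4% and 1.8% from NP to LT. The difference was -2.70 from NP to MT (SE 0.33, adjusted P = 0.00107) and -3.70 with edgeR on the counts (adjusted P = 0.00501). The LT values rest on 10, 4, 1 and 2 reads, and the step from MT to LT was not called (adjusted P = 0.255). RSPO2 had no more than 6 reads in any animal.

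LGR4, a receptor for R-spondins, was more even. It stood at 41.8, 49.1 and 44 TPM in NP, 48.6, 48.6 and 48.1 TPM in MT and 37.8, 41.4, 36.8 and 34.5 TPM in LT. The LT animals were the lowest, and all lay below all others. The difference from MT to LT was -0.36 (SE 0.09, adjusted P = 0.0147), and the call was lost with edgeR (-0.19, adjusted P = 0.0623) and without MT replicate 2 (adjusted P = 0.0511). Over the whole span from NP, limma gave -0.25 (SE 0.09, adjusted P = 0.0338), beside the median of -0.28 over all genes. With median-ratio scaling the sign turned to 0.037, and the call was lost without any one of NP replicates 2 and 3 or LT replicates 1, 3 and 4 (adjusted P up to 0.140).

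**Figure D3:**
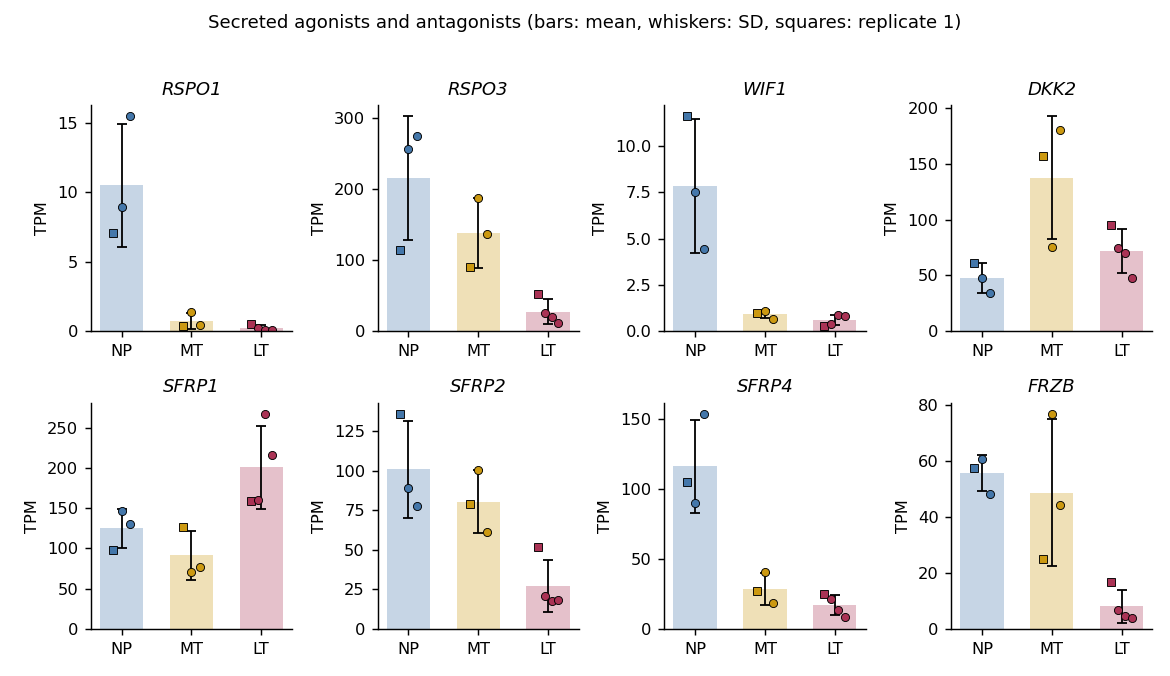
TPM of 2 R-spondin agonists and 6 secreted antagonists by stage on a linear axis from 0: bars are stage means, whiskers are the SD (NP and MT n = 3, LT n = 4), points are animals, and squares are replicate 1 of each stage. SFRP1 rises to 159 to 267 TPM in LT while RSPO3, SFRP2, SFRP4 and FRZB are lowest there, and LT replicate 1 is the highest LT animal for RSPO1, RSPO3, SFRP2, SFRP4, FRZB and DKK2.

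Among the secreted frizzled-related proteins, which bind WNT ligands outside the cell, 4 were tested and each changed from NP to LT, 1 upward and 3 downward, beside 11.2% and 41.9% of all tested genes. SFRP1 had 98.4, 146 and 130 TPM in NP, 127, 70.8 and 76.5 TPM in MT and 159, 160, 267 and 217 TPM in LT. Every LT animal was above every other animal. The difference from MT to LT was 1.14 (SE 0.25, adjusted P = 0.00914), a 2.2-fold higher mean, and 1.32 with edgeR (adjusted P = 0.00732). Against NP it was 0.67 (SE 0.25, adjusted P = 0.0429), a call that was lost without NP replicate 1 (0.50, adjusted P = 0.132), and also without NP replicate 3, MT replicate 3, LT replicate 3 or LT replicate 4.

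SFRP4 fell early. Its levels were 105, 89.9 and 154 TPM in NP, 27.1, 40.8 and 18.2 TPM in MT and 25.0, 21.3, 13.7 and 8.67 TPM in LT, so that NP did not overlap with either pregnant stage. The difference from NP to MT was -2.02 (SE 0.39, adjusted P = 0.00773), and the step from MT to LT was not called (adjusted P = 0.147).

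SFRP2 and FRZB fell late. SFRP2 had 136, 89.2 and 78.1 TPM in NP, 79.2, 101 and 61.2 TPM in MT and 51.7, 20.8, 17.5 and 18.5 TPM in LT. FRZB, also named SFRP3, had 57.4, 60.7 and 48.3 TPM in NP, 24.8, 76.6 and 44.3 TPM in MT and 16.7, 6.91, 4.77 and 3.96 TPM in LT. In both genes NP and MT overlapped and every LT animal lay below them. From MT to LT the difference was -1.65 for SFRP2 (SE 0.36, adjusted P = 0.00934) and -2.5 for FRZB (SE 0.45, adjusted P = 0.00469). The LT animals differed among themselves, since replicate 1 was the highest in both genes, and without it the differences were -2.0 and -2.88. SFRP5 stayed between 1.13 and 4.14 TPM and was not tested.

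The sum of the 5 genes had a mean of 399.6 ± 11.9 TPM in NP against 251 ± 45.9 in MT and 256 ± 39.3 in LT (SD). The means of MT and LT differed by less than the SD of either stage, while the shares of the genes shifted. SFRP1 made up 31.2% of the sum of stage means in NP, 36.4% in MT and 78.5% in LT. SFRP4 held 29.1%, 11.5% and 6.72%, SFRP2 25.3%, 32.1% and 10.6%, and FRZB 13.9%, 19.4% and 3.16%.

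**Figure D4:**
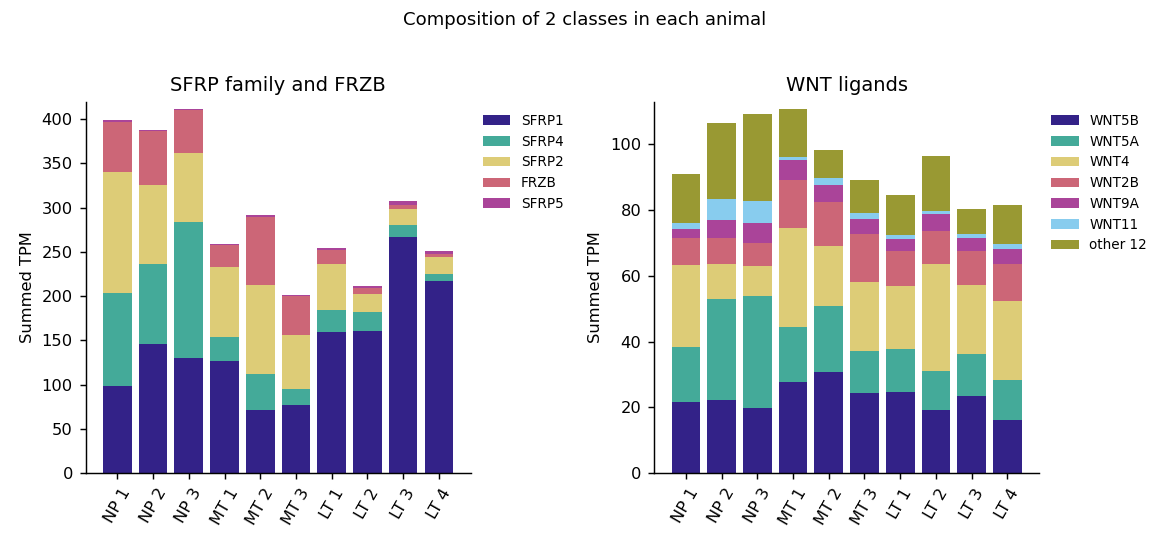
Summed TPM of the SFRP family with FRZB (left) and of the 18 WNT ligands (right) in each of the 10 animals, stacked by gene on linear axes from 0. SFRP1 forms most of the SFRP bar in each LT animal and a smaller part in NP, while the WNT bars lie between 80.4 and 111 TPM in all animals.

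WIF1, which also binds WNT ligands directly, had 11.6, 7.55 and 4.42 TPM in NP, 0.959, 1.11 and 0.660 TPM in MT and 0.291, 0.408, 0.845 and 0.841 TPM in LT. It passed below the operational threshold at the same step as RSPO1, with no overlap between NP and the pregnant animals. The difference from NP to MT was -2.14 (SE 0.31, adjusted P = 0.00230), and no change was called from MT to LT (adjusted P = 0.514). NOTUM, an enzyme that removes the lipid from WNT proteins, was below the threshold in each animal, with 0.231 to 1.61 TPM among the NP animals and no more than 0.0558 TPM in LT.

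The DKK genes followed another course. DKK2, a ligand of LRP co-receptors, had 60.8, 47.7 and 34.2 TPM in NP, 157, 75.3 and 180 TPM in MT and 95.0, 74.1, 69.7 and 47.3 TPM in LT. The MT animals were all above the NP animals, and LT overlapped with both. The difference from NP to MT was 1.45 (SE 0.35, adjusted P = 0.0182), a 2.89-fold higher mean. The call was lost without NP replicate 2 (adjusted P = 0.0511), NP replicate 3 (0.0601), MT replicate 1 (0.0528) or MT replicate 3 (0.0759), with differences of 1.21 to 1.48. By stage mean DKK2 was the most abundant of the class in MT and DKK3 in NP and LT, though the animals of both genes overlapped in MT.

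DKK3, a secreted family member that is not a typical LRP ligand, had 240, 115 and 91.4 TPM in NP, 143, 105 and 104 TPM in MT and 83.2, 112, 149 and 158 TPM in LT. The stages overlapped and no change was called (adjusted P = 0.661 from NP to MT and 0.890 from MT to LT). DKK1, the best known LRP inhibitor of the family, had 3 to 4 reads in the NP animals, 7 to 14 in MT and 1, 0, 0 and 0 in LT, and DKK4 no more than 5 reads in any animal.

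Of the Frizzled receptors, 5 of 5 tested fell from NP to LT, with no overlap between the animals, where 41.9% of all tested genes fell and 40.6% were lower without overlap. With median-ratio scaling 1 of the 5 was called (FZD7), where 3157 of the 12645 genes were called lower. With edgeR 3 of the 5 were called (FZD1, FZD7 and FZD3), where 25.8% of all genes were called lower. The summed TPM of the 8 Frizzled genes had a mean of 154.5 ± 11.5 in NP against 105 ± 4.93 in MT and 107 ± 5.37 in LT (SD). The order of the levels was FZD1, FZD6, FZD7, FZD4 and FZD3 in NP and MT, and FZD4 exchanged its place with FZD7 in LT.

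FZD1 had 49.1, 47.3 and 53.1 TPM in NP, 32.6, 34.5 and 33.1 TPM in MT and 37.9, 33.1, 31.6 and 35.9 TPM in LT. FZD6 had 37.9, 38.5 and 36.6 TPM in NP, 23.7, 22.7 and 24.7 TPM in MT and 23.7, 31.8, 28.6 and 34.5 TPM in LT. FZD4, known as a receptor of norrin as well as of WNT ligands, had 24.7, 20.1 and 22.8 TPM in NP, 16.2, 17.6 and 15.6 TPM in MT and 17.7, 16.1, 18.6 and 19.6 TPM in LT. In these 3 genes the step lay between NP and MT, where the animals did not overlap.

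Between NP and MT the difference was -0.56 for FZD1 (SE 0.09, adjusted P = 0.00377), -0.65 for FZD6 (SE 0.13, adjusted P = 0.00799) and -0.42 for FZD4 (SE 0.11, adjusted P = 0.0262). The call of FZD4 was lost with edgeR (adjusted P = 0.135), and without NP replicate 3, MT replicate 1 or MT replicate 3. None of the 3 was called from MT to LT, and for FZD6 edgeR gave a rise of 0.50 (adjusted P = 0.0222). Over the span from NP to LT the differences were -0.51, -0.35 and -0.30 beside a median of -0.28 over all genes, and after median-ratio scaling -0.23, -0.063 and -0.024 with no call (adjusted P = 0.0589, 0.712 and 0.886). The last 2 calls were also lost with single animals left out, for FZD6 without NP replicate 2 or 3 or LT replicate 1 or 3 (adjusted P up to 0.0863) and for FZD4 without NP replicate 1 or 3 or LT replicate 1, 2 or 3 (adjusted P up to 0.0838).

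FZD7 and FZD3 spread more widely among the NP animals. FZD7 had 19.7, 36.2 and 34.2 TPM in NP, 17.1, 23.5 and 20.6 TPM in MT and 15, 15.5, 16.1 and 15.7 TPM in LT. FZD3, a receptor of the planar polarity branch, had 6.37, 12.1 and 11.9 TPM in NP, 7.39, 8.75 and 6.73 TPM in MT and 6.24, 5.66, 5.93 and 5.67 TPM in LT. NP replicate 1 was the low animal of its stage for both, within the MT range for FZD7 and just below it for FZD3. Neither was called from NP to MT with all animals (adjusted P = 0.113 and 0.299). Without NP replicate 1 the differences were -0.77 and -0.60 (adjusted P = 0.00369 and 0.00947), where 33% of all genes were called. The NP to LT difference was -0.86 for FZD7 (SE 0.19, adjusted P = 0.00440) and -0.64 for FZD3 (SE 0.20, adjusted P = 0.0198), and the call of FZD3 was lost with median-ratio scaling (adjusted P = 0.0693) and without NP replicate 2 or 3 (adjusted P = 0.0867 and 0.0828).

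FZD2, FZD5 and FZD9 remained below 3 TPM in all animals and were not tested. FZD2 had 1.20 to 2.89 TPM in the NP animals, 0.726 to 1.24 TPM in the MT animals and 0.0512 to 0.634 TPM in the LT animals, with 23, 11, 2 and 3 reads in the LT animals. FZD5 had 1.41 to 2.07 TPM in the NP animals, 1.72 to 2.605 TPM in the MT animals and 2.195 to 2.98 TPM in the LT animals.

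The co-receptors were lowest in LT. The sum of ROR1, ROR2 and LRP6 had a mean of 68.9 ± 7.62 TPM in NP against 66.95 ± 6.94 in MT and 39.1 ± 2.66 in LT (SD). None of the 3 was called from NP to MT with all animals in the fit, though ROR2 was without NP replicate 1. Each was lower in LT than in MT with no overlap, as were 35.5% of all tested genes.

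ROR1, a receptor tyrosine kinase that binds WNT5A, had 32.4, 40.2 and 36.7 TPM in NP, 36.1, 43.8 and 33.8 TPM in MT and 23.8, 22.1, 19.2 and 16.8 TPM in LT. LRP6, the co-receptor of the canonical branch, had 19.8, 22.1 and 19.4 TPM in NP, 19.9, 19.4 and 20.3 TPM in MT and 13.3, 11.98, 12.5 and 14.3 TPM in LT. NP and MT lay side by side in both genes and the LT animals apart from them. Between MT and LT the difference was -0.86 for ROR1 (SE 0.14, adjusted P = 0.00355) and -0.58 for LRP6 (SE 0.09, adjusted P = 0.00340), and with edgeR -0.72 and -0.44 (adjusted P = 0.00421 and 0.00781).

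ROR2, the second WNT5A receptor of this type, had 8.40, 13.2 and 14.5 TPM in NP, 7.08, 11.8 and 8.76 TPM in MT and 5.69, 5.16, 5.27 and 6.34 TPM in LT. From NP to MT the adjusted P was 0.280, and without NP replicate 1 the difference was -0.57 (adjusted P = 0.0443). Its difference from MT to LT was -0.60 (SE 0.20, adjusted P = 0.0484). That call was lost with edgeR (adjusted P = 0.0592) and without any one of NP replicate 2, MT replicate 2 or 3 or the LT animals (adjusted P up to 0.191). Between NP and LT the difference was -0.95 (SE 0.20, adjusted P = 0.00351), and this call held in all these settings.

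**Figure D5:**
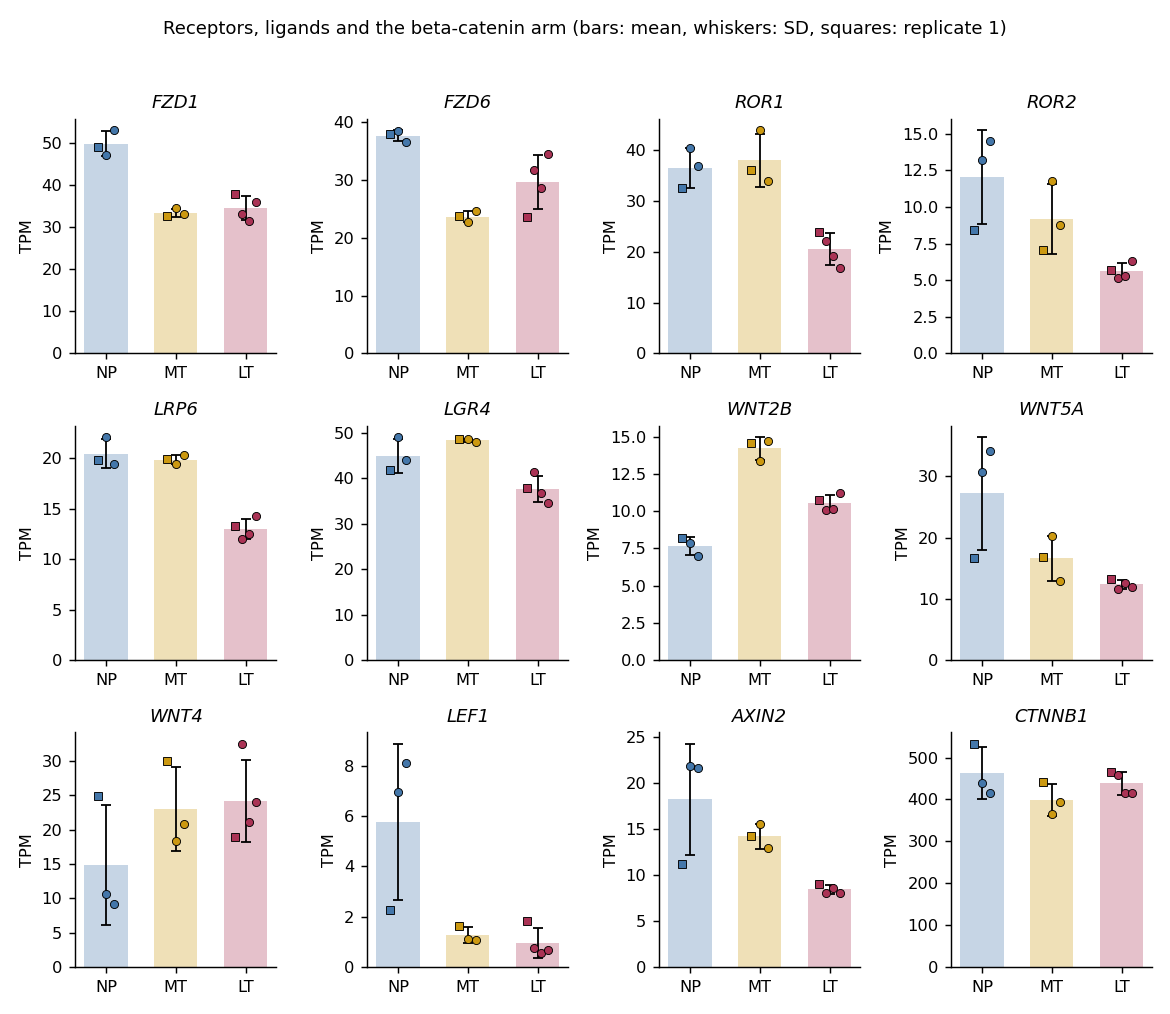
TPM of 6 receptors and co-receptors, 3 WNT ligands and 3 genes of the beta-catenin arm by stage, on linear axes from 0: bars are stage means, whiskers are the SD (NP and MT n = 3, LT n = 4), points are animals, and squares are replicate 1. FZD1 and FZD6 step down at MT, ROR1, LRP6 and AXIN2 are lowest in LT, WNT2B is highest in MT, and CTNNB1 overlaps between all stages.

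Of 10 tested WNT ligands, 1 rose and none fell from NP to MT, 1 fell from MT to LT, and 1 rose and 3 fell from NP to LT. These are 10%, 10% and 40% of the ligands, beside 18.5%, 29.4% and 53.1% of all genes, and the difference between the shares was not tested. Without NP replicate 1, 6 of the 10 were called from NP to MT (WNT4 and WNT2B higher, and WNT5A, WNT11, WNT10A and WNT6 lower), beside 33% of all genes. With edgeR, WNT2B rose and WNT11 fell from NP to MT, while WNT7B rose and none fell from MT to LT. Over the whole span 1 rose and 3 fell. These are 20%, 10% and 40% of the ligands, where edgeR called 18%, 29% and 49.4% of all genes. The summed level of the 18 ligands had a mean of 102 ± 9.87 TPM in NP against 99.5 ± 10.8 in MT and 85.7 ± 7.38 in LT (SD). The order of the ligands did change. The first place was held by WNT5A in NP with 26.6% of the sum, by WNT5B in MT with 27.7% and by WNT4 in LT with 28.2%. Within a stage the first ligands did not stand apart, since the NP animals of WNT5A (16.7 to 34.2 TPM) and WNT5B (19.8 to 22.2 TPM) overlapped, as did the LT animals of WNT4 (19.0 to 32.6 TPM) and WNT5B (16.2 to 24.5 TPM).

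WNT2B, a ligand of the canonical branch, was the only ligand that changed in each comparison. It had 8.18, 7.88 and 7.01 TPM in NP, 14.6, 13.3 and 14.7 TPM in MT and 10.8, 10.1, 10.1 and 11.2 TPM in LT. The 3 stages formed 3 ranges without overlap, with MT highest and NP lowest. The difference was 0.81 from NP to MT (SE 0.11, adjusted P = 0.00130) and 0.41 from NP to LT (SE 0.10, adjusted P = 0.00617). The fall from MT to LT was -0.40 (SE 0.10, adjusted P = 0.0156). That fall was not called with edgeR (-0.26, adjusted P = 0.127) or without MT replicate 3 (-0.37, adjusted P = 0.0542), and its size is to be read beside the median of -0.16 over all genes. The exact permutation F statistic over the 3 stages gave P = 0.000476, the smallest that 4200 assignments can give (adjusted P = 0.00729).

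WNT5A, the main ligand of the ROR receptors, had 16.7, 30.7 and 34.2 TPM in NP, 16.8, 20.2 and 12.9 TPM in MT and 13.3, 11.7, 12.6 and 12 TPM in LT. NP replicate 1 lay within the MT range and the LT animals close together below NP. Between NP and LT it differed by -1.02 (SE 0.23, adjusted P = 0.00429), and from NP to MT the adjusted P was 0.0912, or 0.00483 without NP replicate 1. Its paralog WNT5B was called in none of the comparisons, with a mean of 21.2 ± 1.28 TPM in NP against 27.6 ± 3.13 in MT and 20.9 ± 3.88 in LT (SD).

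WNT4, which takes part in the formation of the Müllerian duct, had 24.9, 10.6 and 9.11 TPM in NP, 29.99, 18.4 and 20.8 TPM in MT and 19.0, 32.6, 21.2 and 24.1 TPM in LT. No change was called (adjusted P = 0.171 from NP to MT and 0.0644 from NP to LT). Here NP replicate 1 was the high animal of its stage, and without it the difference was 1.12 from NP to MT (adjusted P = 0.0114) and 1.19 from NP to LT (adjusted P = 0.00225). The squamous, smooth muscle, stromal and columnar marker sums were also highest in that animal of NP. Their part in this value was not tested.

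Of the ligands near the operational threshold, WNT11 and WNT6 fell from NP to LT. WNT11 had 2.08, 6.51 and 6.63 TPM in NP, 1.15, 2.33 and 1.67 TPM in MT and 1.41, 1.13, 0.983 and 1.57 TPM in LT. WNT6 had 1.58, 5.03 and 5.39 TPM in NP, 1.51, 1.60 and 1.42 TPM in MT and 1.37, 1.39, 0.956 and 0.612 TPM in LT. In both, 2 NP animals were high and NP replicate 1 lay near the pregnant animals. By late pregnancy the difference from NP was -1.31 for WNT11 (SE 0.33, adjusted P = 0.00759) and -1.17 for WNT6 (SE 0.32, adjusted P = 0.0117), and the call of WNT6 was lost without NP replicate 2 or NP replicate 3 (adjusted P = 0.0542 and 0.0533). For WNT11 edgeR also called the fall from NP to MT (-1.40, adjusted P = 0.0445).

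WNT10A lies next to WNT6 in the RefSeq annotation of the guinea pig (assembly mCavPor4.1). It had 2.01, 4.82 and 7.48 TPM in NP, with NP replicate 1 again lowest, 4.09, 0.964 and 1.77 TPM in MT and 2.40, 3.23, 1.70 and 1.44 TPM in LT, and no change was called (adjusted P = 0.215 from NP to MT). Without NP replicate 1 it was called lower in MT (-1.21, adjusted P = 0.0465) and in LT (-1.17, adjusted P = 0.0252). The other adjacent pairs were WNT9A with WNT3A, WNT3 with WNT9B and WNT10B with WNT1. Their members differed in level, as WNT9A stood at 2.65 to 6.07 TPM in all animals and WNT3A at no more than 0.939 TPM.

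WNT16 and WNT7B also crossed 3 TPM between stage means, without a called change. WNT16 had 4.98, 4.90 and 3.53 TPM in NP, 3.48, 1.89 and 3.02 TPM in MT and 3.45, 3.90, 1.28 and 2.5 TPM in LT. WNT7B, an epithelial ligand, had 2.52, 2.05 and 2.63 TPM in NP, 1.68, 0.493 and 1.36 TPM in MT and 1.62, 4.29, 1.74 and 4.96 TPM in LT. The LT animals of WNT7B fell apart, with LT replicates 2 and 4 above all others, and with edgeR the change from MT to LT was 1.58 (adjusted P = 0.0465) against an adjusted P of 0.0779 with limma. WNT7A had 1 read in NP replicate 1 and 41 and 73 reads in the other NP animals, and its mean of 2.01 ± 1.83 TPM (SD, n = 3) was too low for the test. WNT3, WNT10B, WNT8B and WNT9B had no more than 2.13 TPM in any animal.

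PORCN, the acyltransferase that attaches the lipid to WNT proteins, had 9.17, 10.8 and 9.81 TPM in NP, 9.80, 9.79 and 9.54 TPM in MT and 8.40, 7.93, 6.59 and 5.69 TPM in LT. The LT animals lay below all others. The difference from MT to LT was -0.41 (SE 0.13, adjusted P = 0.0464), which was not called with edgeR (-0.27, adjusted P = 0.131) or without any single animal other than NP replicate 1 and LT replicate 1 (adjusted P up to 0.126). Between NP and LT it was -0.43 (SE 0.13, adjusted P = 0.0219), and the call was lost with edgeR (adjusted P = 0.266) and without NP replicate 2 or 3 or LT replicate 3 or 4 (adjusted P up to 0.0813). WLS, which carries WNT proteins to the cell surface, stood at 174 ± 5.91 TPM in NP against 150.0 ± 0.419 in MT and 152 ± 13.8 in LT (SD), with no called change.

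In the beta-catenin arm, the message of beta-catenin itself did not separate the stages, while AXIN2 and LEF1 fell. CTNNB1 had 533, 438 and 415 TPM in NP, 441, 364 and 394 TPM in MT and 465, 457, 415 and 415 TPM in LT, with an adjusted P of 0.229 from NP to MT and 0.360 from MT to LT. The protein is controlled by degradation, which RNA-seq does not measure.

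AXIN2, a negative regulator of the pathway and one of its most used target genes, had 11.2, 21.8 and 21.7 TPM in NP, 14.2, 15.5 and 12.9 TPM in MT and 9.08, 8.0, 8.59 and 8.07 TPM in LT. Every LT animal was below every other animal, and NP replicate 1 lay below MT. The difference was -0.69 from MT to LT (SE 0.20, adjusted P = 0.0297) and -0.97 from NP to LT (SE 0.20, adjusted P = 0.00301), and with edgeR -0.58 and -0.79 (adjusted P = 0.0293 and 0.00413). The call from MT to LT was lost without any one of the MT animals or of LT replicates 2, 3 and 4 (adjusted P up to 0.107). Without NP replicate 1 the difference from NP to MT was -0.58 (adjusted P = 0.00573), and with it the adjusted P was 0.369.

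LEF1, a DNA-binding partner of beta-catenin, had 2.25, 6.94 and 8.12 TPM in NP, 1.64, 1.11 and 1.08 TPM in MT and 1.82, 0.751, 0.552 and 0.667 TPM in LT. Its stage mean passed below the operational threshold at mid-pregnancy, with NP replicate 1 already below it and no overlap between NP and MT. The NP to MT difference was -1.45 (SE 0.39, adjusted P = 0.0295), and the call was lost without NP replicate 2, NP replicate 3, MT replicate 2 or MT replicate 3 (adjusted P = 0.0999, 0.0963, 0.0778 and 0.0947). To late pregnancy it was -1.71 (SE 0.37, adjusted P = 0.00355). TCF7, the fourth gene of this arm, had 1.08, 4.2 and 3.24 TPM in NP and 0.149 to 1.79 TPM in the pregnant animals, and its stage means stayed below the threshold. NP replicate 1 was the lowest NP animal for both genes and for the summed leukocyte markers (220 TPM against 519 and 398). The 8 tested leukocyte markers had a median change of -0.50 from NP to MT, beside -0.14 over all genes, and none of them was called. Their changes ran from -0.84 for CD68 to 0.42 for LCP1. The part of leukocytes in these values was not tested.

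Markers moved with several of these changes. Endothelial markers fell from MT to LT with a median of -0.91 over their 8 genes, in the same interval as RSPO3, FRZB, SFRP2, ROR1, LRP6 and AXIN2. Of 8 stromal markers 2 fell and 1 rose in that interval with a median of 0.10, and those that fell were the fibroblast receptors PDGFRA (-1.59, adjusted P = 0.00187) and PDGFRB (-0.56, adjusted P = 0.0324), the latter not called with edgeR (-0.39, adjusted P = 0.0740). LUM was the gene that rose (0.91, adjusted P = 0.00761), and edgeR also called it (1.12, adjusted P = 0.00522). Of 12 squamous markers 4 fell from NP to MT, with a median of -1.68, where RSPO1, WIF1, SFRP4, LEF1, FZD1, FZD6 and FZD4 fell, and 2 rose from MT to LT with a median of 0.96, where SFRP1 rose. The 2 were KRT14 and DSC2, and DSC2 was not called with edgeR (adjusted P = 0.0678). Smooth muscle markers had a median change of 0.44 and 1 of 11 was called higher in the same interval as that rise. Of the columnar and mucous markers 6 of 9 rose from NP to MT, with a median of 1.56, where DKK2 and WNT2B rose, and 1 fell, ELF3 (-1.11, adjusted P = 0.00792). In the interval from MT to LT, where SFRP1 rose, 1 of the 9 rose and none fell, with a median of 0.24. It was AGR2 (1.66, adjusted P = 0.00559). Among the NP animals the squamous sum was highest in replicate 1 (6562 TPM). In that animal RSPO1, LEF1 and SFRP1 were at their lowest of NP, and WIF1 and FZD4 at their highest. SFRP4, FZD1 and FZD6 lay between the other NP animals there. The part of these cell types in the results was not tested.

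The rest of the pathway was read from 6 lists of genes. The counts stand beside the shares of all tested genes, of which 12.2% fell and 6.27% rose from NP to MT, 22.7% and 6.73% from MT to LT, and 41.9% and 11.2% from NP to LT. For WNT secretion and further co-receptors, 10 of 12 genes were tested, none changed from NP to MT, 2 fell from MT to LT and 5 fell from NP to LT. The 2 were RECK, a membrane protein that helps WNT7 ligands signal, with a difference of -1.08 (SE 0.19, adjusted P = 0.00455), and its partner GPR124, with -0.70 (SE 0.15, adjusted P = 0.00815). RECK had 57.1 ± 4.38 TPM in NP against 48.9 ± 2.5 in MT and 23.4 ± 7.51 in LT, and GPR124 had 131 ± 12.1, 108 ± 22.9 and 65.4 ± 8.18 TPM (SD). The endothelial markers fell in the same interval, and their part was not tested. The others called from NP to LT were GPC3, a glypican, at -0.99, the ubiquitin ligase ZNRF3 at -0.80 and the receptor-like PTK7 at -0.77.

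Of 5 tested secreted modulators, WISP1 fell from NP to MT (-0.80, SE 0.22, adjusted P = 0.0310; with edgeR adjusted P = 0.0603) and IGFBP4 rose from MT to LT (1.45, SE 0.22, adjusted P = 0.00284). IGFBP4, best known as a binding protein of insulin-like growth factors, had 669 ± 124 TPM in NP against 831 ± 166 in MT and 2289 ± 623 in LT (SD). Like SFRP1, it was higher in every LT animal than in any other animal. APCDD1, a membrane inhibitor of WNT signals, was at 54.5 ± 22.6, 33.4 ± 4.56 and 20.8 ± 3.43 TPM (SD) and fell from NP to LT by 1.27 (SE 0.27, adjusted P = 0.00314).

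The cytoplasmic cascade had 24 tested genes, none of which rose. From NP to MT 5 fell, from MT to LT 10 and from NP to LT 17, with medians of -0.21, -0.27 and -0.52 beside -0.14, -0.16 and -0.28 over all genes. Of all genes 12.2%, 22.7% and 41.9% fell. The largest fall was that of CSNK1E, a kinase that acts on Dishevelled, with 84.99 ± 13.2 TPM in NP against 44.3 ± 4.98 in MT and 28.7 ± 1.87 in LT (SD), a difference of -1.52 from NP to LT (SE 0.12, adjusted P = 4.34e-05). DVL1, DVL2 and DVL3, the Dishevelled genes that relay the signal from Frizzled, fell from MT to LT with differences of -0.50, -0.67 and -0.47 (adjusted P = 0.00432, 0.00901 and 0.0149), where DVL1 and DVL3 were chosen after their values were seen. The tankyrase gene TNKS, whose product limits AXIN proteins, fell in the same interval (-0.68, adjusted P = 0.00245). With edgeR, 2 fell from NP to MT, 7 from MT to LT, and from NP to LT 12 fell and 2 rose, where edgeR called 7.98%, 15.6% and 25.8% of all genes lower and 23.6% higher from NP to LT.

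Among the nuclear cofactors, 15 were tested, and 4 fell from NP to MT, 10 fell and 1 rose from MT to LT, and 12 fell from NP to LT, with 12.2%, 22.7% and 41.9% of all genes lower. The DNA-binding factor TCF7L2 fell from MT to LT (-0.78, SE 0.12, adjusted P = 0.00290), as did TCF7L1 (-0.68, SE 0.18, adjusted P = 0.0192). The gene that rose was CTNNBIP1, an inhibitor that keeps beta-catenin from TCF factors, with 41.1 ± 10.7, 28.2 ± 6.98 and 50.8 ± 11.9 TPM (SD) and a difference of 0.82 (SE 0.23, adjusted P = 0.0240). PYGO1, BCL9 and HBP1 fell in all 3 comparisons, with -1.05, -1.12 and -1.24 from NP to LT.

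In the planar polarity and calcium arm, 16 genes were tested. From NP to MT, CELSR1 rose (0.92, SE 0.18, adjusted P = 0.00797) while PRICKLE1 (-1.17), VANGL2 (-0.94) and NFATC4 (-0.51) fell. PRICKLE1, a core polarity protein, had 21.9 ± 4.13 TPM in NP against 9.07 ± 0.781 in MT and 9.35 ± 0.645 in LT (SD). Between MT and LT 3 fell. Among them, DAAM2, a formin downstream of Dishevelled, went from 49.97 ± 4.95 to 20.4 ± 6.02 TPM (SD), a difference of -1.29 (SE 0.19, adjusted P = 0.00282). In the whole span 1 rose and 8 fell. The 3 and 8 that fell of 16 stand near the 22.7% and 41.9% of all genes that fell in these intervals.

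Canonical target genes are the readout used most for the beta-catenin branch. Of the 10 tested, 2 fell from NP to MT (LEF1 and NKD1), 2 fell and 1 rose from MT to LT, and 7 fell and 1 rose from NP to LT, with a median of -0.85 from NP to LT beside -0.28 over all genes. The 2 that fell of 10 from MT to LT stand near the 22.7% of all genes that fell, and the 7 from NP to LT stand beside 41.9%. AXIN2 and LEF1 are in both this list and the genes above, and several others are feedback inhibitors counted in an earlier list. MYC fell from 55.7 ± 4.52 TPM in MT to 38.3 ± 6.76 TPM in LT (SD), a difference of -0.54 (SE 0.14, adjusted P = 0.0164) that edgeR did not call (adjusted P = 0.0864). The gene that rose was ASCL2, a transcription factor of stem cells and trophoblast, from 7.64 ± 1.63 to 13.1 ± 1.61 TPM (SD), a difference of 0.72 (SE 0.17, adjusted P = 0.0137). SP5 and NOTUM were below the operational threshold in every animal.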

How the data were processed

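The authors aligned strand-specific single-end reads to the guinea pig genome (cavPor3) with TopHat2, counted reads per Ensembl gene with HTSeq 0.5.4p1 and derived TPM. The submitters' processing notes also name CASAVA 1.8.2. Per the labels, poly(A) RNA was selected, while labels and methods both name a total RNA protocol for the libraries. The deposited table holds a read count and a TPM value per gene and animal, used as deposited. Groups came from the sample labels.

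TPM was tested with limma 3.58.1 (R 4.3.3, trend on, pseudocount 1) in 1 fit of the 10 animals, two-sided, with Benjamini-Hochberg adjustment over 12645 genes with a stage mean of at least 3 TPM, and with an exact permutation of the one-way F statistic on square-root TPM. Where no tool is named, an adjusted P comes from limma. Counts were tested with edgeR 4.0.16 (quasi-likelihood, TMM) and DESeq2 1.42.0 as alternatives, next to other pseudocounts (0.1 and 3), filters, scalings and fits that left out animals. On simulated data with planted 2-fold changes, limma recovered 50.5% of 200 among 12202 genes from NP to MT, 63.5% of 197 among 12197 from MT to LT and 65.5% of 197 among 12192 from NP to LT, with false calls of 8.18%, 8.09% and 5.84%. On the same simulated data edgeR recovered 58.5%, 68.0% and 70.05%, with false calls of 3.31%, 4.29% and 4.83%. The simulation gave all genes the same relative spread between animals, changed only the planted genes and held no animal that stood apart. The rates may therefore differ in the real data.

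The genes and lists were chosen with earlier results of these data known. Genes are given by animal where called in a comparison, at a stage mean of 30 TPM or more, or crossing 3 TPM between stage means; from each list at most the 4 called genes of largest change per comparison are named, and list genes without a call were named after their values were seen. All 50 genes matched a RefSeq symbol. A planned motif search in promoters was not run, since no sequence table was used here.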

Additional observations from a re-analysis of the deposited data

Results flagged for a closer look

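The 4 LT animals allow a test of single animals for each of the 32 tested genes, since the other stages have 3. In 2 genes the LT replicate 1 stood apart from the others by Dixon's criterion (a gap of more than 0.829 of the whole range). SFRP2 had 51.7 TPM in that animal against a mean of 18.9 TPM in the other 3 (gap 0.904 of the range). LEF1 had 1.82 TPM against 0.657 TPM (gap 0.843). Chance alone marks about 1 in 20 groups. The same animal was the highest of LT for 15 of the 32 genes. Its endothelial marker sum of 115 TPM and its stromal fibroblast sum of 9607 TPM were the highest of LT. Its squamous sum of 1904 TPM and its columnar sum of 7766 TPM were the lowest, and its smooth muscle sum of 19899 TPM was level with the 19908 TPM of LT replicate 2. The part of these markers was not tested.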

How the results depend on the processing

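Of the 43 calls of single WNT pathway genes, 22 kept their direction and their call under each alternative that could be run, among them RSPO1, WIF1, SFRP4, FZD1 and WNT2B from NP to MT, ROR1, LRP6, SFRP2 and FRZB from MT to LT, and RSPO3 and AXIN2 from NP to LT. Of 1067 values under alternatives, 912 kept both, 150 kept the direction without the call and 5 turned. LGR4 from NP to LT turned to 0.0373 with median-ratio scaling, 0.0361 with edgeR, 0.0390 with DESeq2 and 0.0658 with the replicate block in edgeR, and FZD4 from NP to LT to 0.0364 with quantile normalization. The cause was not tested. Median-ratio scaling of the TPM alone moved the balance of all genes. From NP to MT limma then called 1313 higher and 979 lower in place of 793 and 1549, from MT to LT 1776 and 1939 in place of 851 and 2872, and from NP to LT 3128 and 3157 in place of 1417 and 5301. With edgeR, which also differs in test and input, they were 1271 and 1009, 1696 and 1971, and 2990 and 3257. With only NP and MT in the fit, 1113 genes in place of 2342 were called. Of the lists from NP to MT, the secreted modulators had 0 called genes with median-ratio scaling and 0 with edgeR in place of 1, and the cytoplasmic cascade 2 and 2 in place of 5. From MT to LT the nuclear cofactors had 7 and 7 in place of 11.

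Same-numbered animals did not deviate together (correlations from -0.29 to 0.25 over 9 pairs, 3 above 0.1), so the numbers were not taken to pair animals. With the replicate block, 1693 genes and 5 WNT pathway genes were called from MT to LT in place of 3723 and 11. With the replicate block in edgeR, added after the values were seen, 1911 genes and 5 WNT pathway genes were called from MT to LT, and 1507 genes from NP to MT.

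Leaving out 1 animal at a time gave 1100 to 4174 genes and 6 to 18 WNT pathway genes from NP to MT, and 1946 to 5323 genes and 7 to 13 WNT pathway genes from MT to LT. From NP to MT the lists ranged from 0 to 2 (secretion), 0 to 3 (secreted modulators), 3 to 10 (cytoplasmic cascade), 1 to 5 (nuclear cofactors) and 1 to 5 (targets). From MT to LT they ranged from 1 to 2 (secreted modulators), 7 to 11 (nuclear cofactors), 2 to 5 (planar polarity) and 1 to 5 (targets). From NP to LT the WNT pathway count was 16 to 23. Without both NP replicate 1 and LT replicate 1, added after the values were seen, 16, 17 and 22 WNT pathway genes were called, beside 4139, 5224 and 7635 of all genes. Genes below 10 TPM gave no value under the stricter filter. Depth limits the genes at the lower end, such as RSPO1, whose LT values rest on 1 to 10 reads.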
